A study of Cicer arietinum with 18 samples.

Results

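The methyl jasmonate (MeJA) arm of a chickpea (Cicer arietinum) array study is described here, chosen as the samples whose titles name a MeJA treatment. These are 6 of the 18 samples, 1 for each of 3 genotypes (FLIP94-508C, ICC3996 and Lasseter) at 3 h and at 27 h after treatment. In every one, RNA from shoots (stem and leaf pooled) of treated seedlings aged 14 days was set against RNA from untreated seedlings of the same line and age on a spotted cDNA array read in 2 colours. The other 12 samples hold the same lines and times after salicylic acid (SA) or aminocyclopropane carboxylic acid (ACC), and serve below for comparison. Of the lines, ICC3996 is known to resist ascochyta blight well and FLIP94-508C in part, while Lasseter is susceptible.

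MeJA is the volatile methyl ester of jasmonic acid, a hormone that plants make on wounding and on attack by chewing insects and necrotrophic fungi. Inside the cell it is hydrolysed and joined to isoleucine, and the conjugate lets the receptor COI1 mark JAZ repressors for degradation, which frees MYC2 and related transcription factors to act on defence and wound genes. Salicylic acid, which acts in defence against biotrophs, and ethylene, which plants make from ACC, are the hormones most often studied beside it.

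The array carried 715 experimental features, of which 117 have identifiers starting with CA, 156 with LS and 442 with U. None of these identifiers matched the gene table used here (0 matched), so features are given by identifier, and neither jasmonate genes nor markers of shoot tissue could be looked up. Each value is a log2 ratio that the authors averaged over 3 biological replications with dye swaps. A value of 1 is a doubling and a value of -1 a halving. Ratios are read as treated over control, which is likely from the order of the channels in the labels but not stated. The 6 samples had pairwise correlations of -0.05 or higher, over the features that each pair shares. Between 544 and 626 features had a value in a sample, 489 had one in all 6 samples, and 37 had none in any.

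The values of 5 of the 6 samples lay close to the control. The SD over features was 0.37 in FLIP94-508C at 3 h, 0.37 in ICC3996 at 3 h, 0.33 in Lasseter at 3 h, 0.31 in FLIP94-508C at 27 h and 0.28 in Lasseter at 27 h. It was 1.04 in ICC3996 at 27 h, 2.81 times the highest of the others. The medians ran from -0.06 to -0.03 in all 6 samples, so that sample stood apart in width and not in its median.

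Counts of features at least 2-fold from control showed the same split. At 3 h FLIP94-508C had 3 above (0.506% of its measured features) and 5 below (0.843%), ICC3996 had 4 above (0.642%) and 16 below (2.57%), and Lasseter had 4 above (0.639%) and 9 below (1.44%). At 27 h FLIP94-508C had 4 above (0.64%) and 4 below (0.64%), Lasseter had 0 above (0.0%) and 4 below (0.677%), and ICC3996 had 6 above (1.1%) and 58 below (10.7%). The totals were thus 8, 20 and 13 at 3 h and 8, 4 and 64 at 27 h. The mean was 19.5 ± 22.5 (SD, n = 6) with ICC3996 at 27 h and 10.6 ± 6.15 (SD, n = 5) without it. In 5 samples no more than 3.21% of the measured features were that far from control, against 11.8% in ICC3996 at 27 h.

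**Figure D1:**
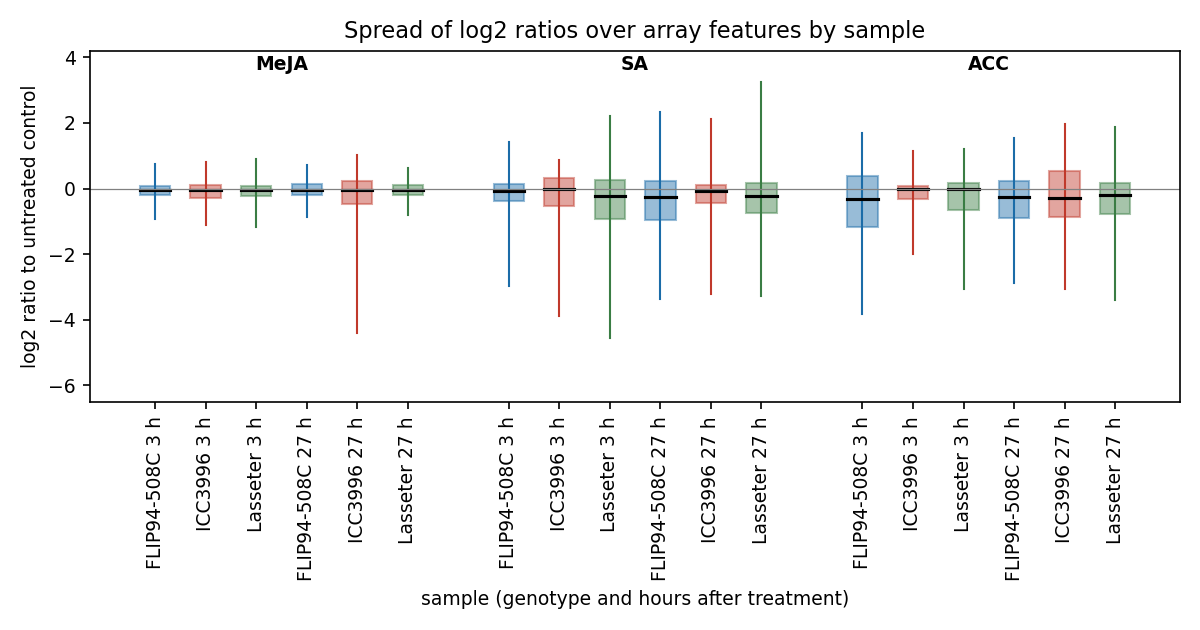
Log2 ratio to untreated control over the array features of each of the 18 samples. The line in a box is the median, the box spans the quartiles, the whiskers run from the percentile 1 to the percentile 99, and colours mark the genotypes. Of the MeJA samples, ICC3996 at 27 h has a percentile 1 of -4.39, while the other 5 lie between -1.17 and -0.81.

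The spread of each MeJA sample was compared with that of the SA and the ACC sample of the same genotype and time. MeJA samples had a mean SD over features of 0.45 ± 0.29 (SD, n = 6), SA samples 0.97 ± 0.17 (SD, n = 6) and ACC samples 0.93 ± 0.23 (SD, n = 6). The MeJA sample was the narrower in 5 of 6 pairs with SA, at 0.417 times the SD on average (exact permutation test within pairs, two-sided p = 0.0625, adjusted over 2 comparisons 0.0625). It was the narrower in 6 of 6 pairs with ACC, at 0.444 times (exact permutation p = 0.0312, adjusted 0.0625), and 0.0312 is the smallest p that 6 pairs allow. Neither passed 0.05 after adjustment. The exception against SA was ICC3996 at 27 h, where the SD was 1.04 under MeJA, 0.937 under SA and 1.06 under ACC. Without that pair the ratios were 0.343 against SA and 0.380 against ACC, given with no test because the pair was left out for its own value.

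The mean response over both times was small, and 2 features passed the test across all features, both lower. The model, fitted with limma to the 6 samples alone, held a mean for each time and a term for genotype, and 566 features had enough values for it. The 2 features are 0.353% of those tested, and 0 were higher. At an unadjusted p under 0.05 there were 69 lower and 19 higher features, 15.5% of those tested. The median response of all 566 was -0.05 on the log2 scale. The genotypes stand in for replicates, but the model takes up the mean level of each line and of each time. Differences between lines, or between the times, are thus not part of its error. These p-values measure only how unevenly the lines changed from 1 time to the other. They do not hold the spread between plants of 1 line.

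LS0035 had log2 ratios of -0.39 for FLIP94-508C, -1.21 for ICC3996 and -0.30 for Lasseter at 3 h, and of -0.79, -1.70 and -0.75 in the same order at 27 h. It fell to 0.553 times control on average (mean log2 -0.86, SE 0.06, limma adjusted p = 0.0479). LS0616 had -0.38, -1.12 and -0.32 at 3 h and -0.87, -1.51 and -0.68 at 27 h. It fell to 0.569 times control (mean log2 -0.81, SE 0.06, limma adjusted p = 0.0479). In both features ICC3996 was the lowest line at each time, and every line was lower at 27 h than at 3 h. The values of the 2 features differed by at most 0.19 in any MeJA sample and by at most 0.16 in any SA sample, while under ACC they came apart by up to 0.99. The sources used here do not say whether they stand for 1 transcript.

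Both calls rest on the genotype term and on single samples. Without the genotype term the limma adjusted p was 0.173 for LS0035 and 0.142 for LS0616, and 0 features passed. After each sample's median was subtracted it was 0.0583 for both. Leaving out either sample of FLIP94-508C or of Lasseter ended both calls, with adjusted p between 0.437 and 0.692, as did leaving out FLIP94-508C (0.348) or Lasseter (0.352) at both times. They held without ICC3996 at 3 h (0.00682 and 0.00796) and without ICC3996 at 27 h (0.0414 for both), and without ICC3996 at both times the means were -0.56 for both features with an adjusted p of 0.0883. The number of features called was 49 without ICC3996 at 3 h and 5 without ICC3996 at 27 h, both sets holding LS0035 and LS0616. It was 0 without ICC3996 at both times, and the cause was not tested.

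Among the 489 features measured in all 6 samples, 48 were above control in every sample (9.82%) and 50 were below in every sample (10.2%). The same counts were 28 of 501 above (5.59%) and 66 below (13.2%) under SA, and 40 of 509 above (7.86%) and 68 below (13.4%) under ACC. Across the MeJA samples, 79 features were above control in 1 sample, 106 in 2, 88 in 3, 66 in 4 and 52 in 5. These counts are a description and carry no test. They move with the zero point, since subtracting each sample's median gave 65 above and 33 below.

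The features above control in all 6 samples had small ratios. Their means ran from 0.07 to 0.70 on the log2 scale with a median of 0.14. Only 5 of the 48 were at least 0.1 from 0 in every sample, and 0 were at least 0.2 from it. Of the 48, 3 had a mean of 1.5-fold or more, 11 had an unadjusted p under 0.05 and 0 passed limma's test after adjustment. By sample, their median was 0.09 for FLIP94-508C, 0.07 for ICC3996 and 0.11 for Lasseter at 3 h, and 0.20, 0.21 and 0.14 at 27 h. FLIP94-508C at 27 h held the highest value for 22 of them and ICC3996 at 27 h for 21.

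Ratios of this size were also seen in control features. The normalisation control NORMCON2 lay between 0.03 and 0.20 above the control RNA in 6 of 6 samples, with a mean of 0.09, and NORMCON4 between 0.04 and 0.19 in 6 of 6, with a mean of 0.10. NORMCON3 was below in 5 of 6 samples, with a mean of -0.16. The part of such an offset in the 48 features was not tested.

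The features below control in all 6 samples were farther from it. Their means ran from -1.03 to -0.09 with a median of -0.36. Of the 50, 17 were at least 0.1 from 0 in every sample, 11 at least 0.2 and 5 at least 0.3, and 12 had a mean of 1.5-fold or more. An unadjusted p under 0.05 was found for 33, and 2 passed after adjustment. By sample, their median was -0.17 for FLIP94-508C, -0.42 for ICC3996 and -0.26 for Lasseter at 3 h, and -0.20, -0.63 and -0.29 at 27 h. ICC3996 was thus the lowest line by this median at both times. It held the lowest value of 29 of the 50 at 27 h and of 8 at 3 h. The 27 h sample also had the widest spread over all features, with an SD of 1.04 against 0.28 to 0.37. Over all features at 3 h, ICC3996 had a percentile 5 of -0.82, against -0.49 in FLIP94-508C and -0.58 in Lasseter. It had 68 features at least 1.5-fold below control at 3 h, against 23 and 31. How often each ICC3996 sample held the lowest value among all features was not counted.

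**Figure D2:**
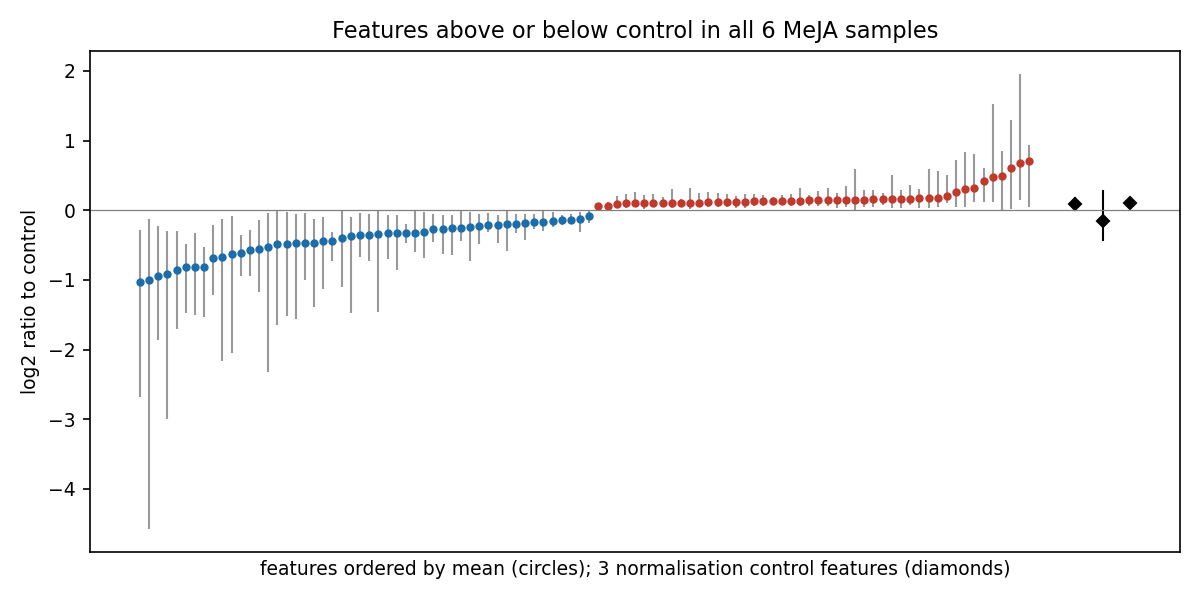
Mean log2 ratio (circles) of the 98 features with 1 sign in all 6 MeJA samples, ordered by their mean, with a line from the lowest to the highest sample. Blue marks the 50 below control and red the 48 above, and black diamonds are the 3 normalisation control features. The 48 above control have a median of 0.14, beside means of 0.09 and 0.10 for 2 of the controls, and the 50 below reach -1.03.

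The counts were also taken by identifier class, with no test of a difference between classes. Of the CA features measured in all 6 samples, 15 of 95 were above in every sample (15.8%) and 11 below (11.6%). Of the U features, 32 of 308 were above (10.4%) and 32 below (10.4%). Of the LS features, 1 of 86 was above (1.16%) and 7 were below (8.14%). What the classes stand for is not given in the files used here.

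CA1173 and U102 were the features whose value nearest to 0 was farthest below it. CA1173 had log2 ratios of -0.54 for FLIP94-508C, -0.99 for ICC3996 and -0.53 for Lasseter at 3 h, and of -0.68, -1.54 and -0.59 at 27 h. Its mean was -0.81 (SE 0.08, limma adjusted p = 0.0736). U102 had -0.49, -0.86 and -0.51 at 3 h and -0.77, -1.47 and -0.80 at 27 h, with a mean of -0.82 (SE 0.07, limma adjusted p = 0.0566). Neither passed after adjustment. The 2 features differed by at most 0.21 in any MeJA sample, by up to 0.90 under SA and by up to 0.63 under ACC. Both had their lowest values in ICC3996 at each time, as LS0035 and LS0616 had.

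Above control, the same rule gave CA1108 and U117. CA1108 had log2 ratios of 0.14 for FLIP94-508C, 0.50 for ICC3996 and 0.21 for Lasseter at 3 h, and of 0.68, 1.96 and 0.61 at 27 h. Its mean was 0.68 (SE 0.13, limma adjusted p = 0.194), and each line was higher at 27 h. U117 had 0.22, 0.12 and 0.15 at 3 h and 0.14, 0.81 and 0.46 at 27 h, with a mean of 0.32 (SE 0.10, limma adjusted p = 0.264). Neither passed. The largest mean above control was that of U386, which had 0.74, 0.74 and 0.85 at 3 h and 0.05, 0.92 and 0.93 at 27 h. Its mean was 0.70 (SE 0.11, limma adjusted p = 0.194), with FLIP94-508C at 27 h as the 1 sample near control.

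These features were read beside SA and ACC. At 3 h the 4 low features were above control in every line under SA, with LS0035 at 0.28, 0.41 and 0.91, LS0616 at 0.14, 0.25 and 0.94, CA1173 at 0.97, 0.47 and 1.05, and U102 at 0.81, 0.50 and 1.13 in FLIP94-508C, ICC3996 and Lasseter. The MeJA values at 3 h lay below the SA values for each of them, as they did for 31 of 493 features (6.29%). The 4 were named for low MeJA values, so 1 side of this reading was fixed by their choice. At 27 h they were below control in every line under SA, with U102 at -1.39, -1.31 and -1.70 and CA1173 at -1.11, -1.39 and -0.79. Of all features measured under SA, 58.4%, 51.3% and 60.0% were below 0 at 3 h in the same order of lines. At 27 h the shares were 61.7%, 62.1% and 63.9%. How many features had 1 sign in all 3 lines at either time was not counted.

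The difference between MeJA and SA at 3 h was tested on pairs of the same line. It was -1.51 for CA1173 (SE 0.22, limma adjusted p = 0.157) and -1.43 for U102 (SE 0.27, limma adjusted p = 0.182). For LS0035 it was -1.17 (SE 0.24, limma adjusted p = 0.225) and for LS0616 -1.05 (SE 0.24, limma adjusted p = 0.243). None passed, and the features were picked with earlier results of these data known. Whether the compounds shared untreated control plants is not given. Under ACC at 3 h CA1173 had 1.04, -0.07 and 0.41 and LS0035 had -0.76, -0.22 and -0.98, so the low features did not lie on 1 side of control there.

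**Figure D3:**
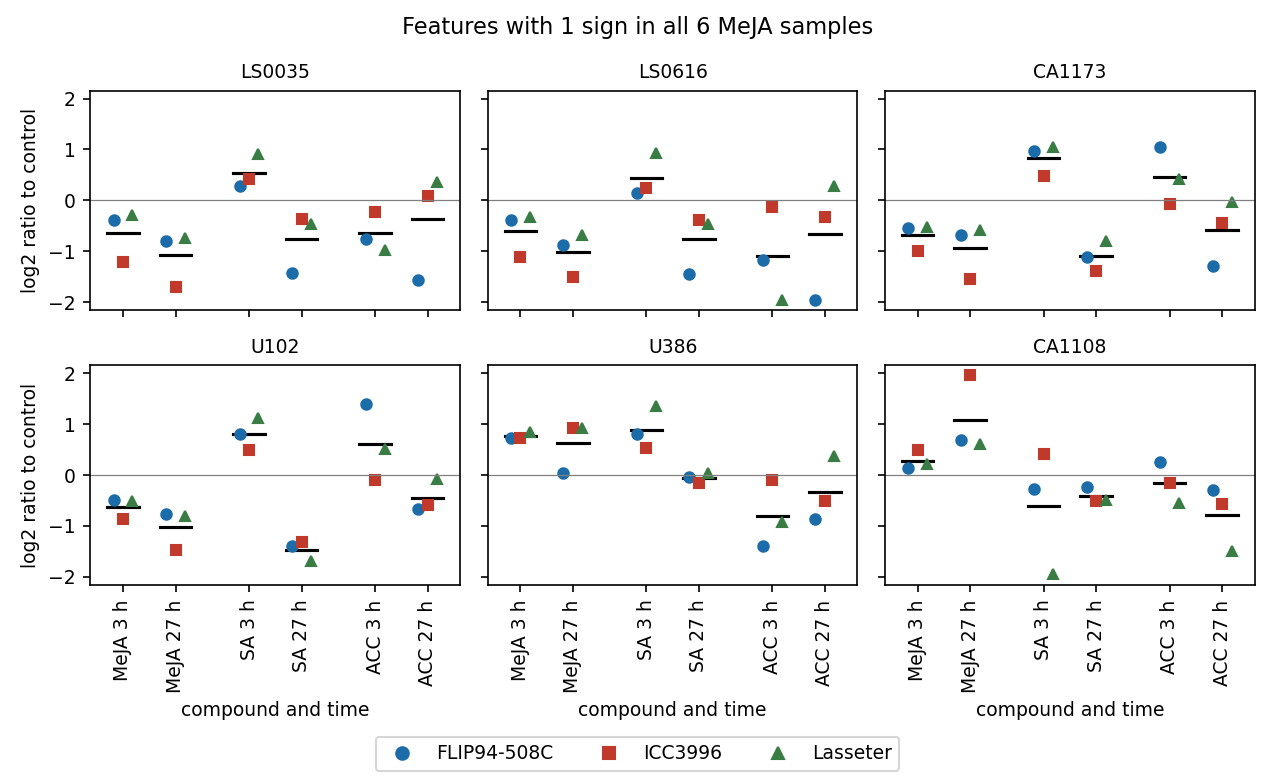
Log2 ratio to untreated control of 6 features with 1 sign in all 6 MeJA samples, by compound and time. Circles are FLIP94-508C, squares ICC3996 and triangles Lasseter, and the black line is the mean of the 3 lines. LS0035, LS0616, CA1173 and U102 lie below 0 under MeJA at both times and above 0 under SA at 3 h.

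At 3 h alone, 0 of 566 features passed limma's test (0.0%) and 60 had an unadjusted p under 0.05, 51 of them lower. The largest means of 1 sign in the 3 lines were those of U212, with 0.38, 0.23 and 1.88 in FLIP94-508C, ICC3996 and Lasseter, and U384, with 0.61, 0.58 and 1.30. Below control they were those of LS0036, with -1.78, -0.89 and -0.56, and U391, with -0.22, -1.05 and -1.43. The 4 means were 0.83, 0.83, -1.08 and -0.90, with limma adjusted p between 0.411 and 0.460. The line farthest from control differed between features. It was Lasseter for U212, U384 and U391, and FLIP94-508C for LS0036.

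At 27 h alone, 0 of 566 features passed (0.0%), with a lowest limma adjusted p of 0.0758, and 78 had an unadjusted p under 0.05, 57 of them lower. Above control the largest means were those of CA1108, at 1.08 (SE 0.19, limma adjusted p = 0.335), and of U121, which had 0.26 for FLIP94-508C, 1.53 for ICC3996 and 0.43 for Lasseter. Below control LS0388 had -0.13, -4.58 and -0.42, and U142 had -0.75, -2.68 and -1.57, with means of -1.71 and -1.67. In all 4 features ICC3996 was the line farthest from control. For LS0388 that 1 sample sets the mean.

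The times did not differ past the threshold for any feature. Between 27 h and 3 h, 0 of 566 features passed limma's test (0.0%), with a lowest adjusted p of 0.750, and 18 had an unadjusted p under 0.05. CA1108 was higher at 27 h by 0.80 and U071 by 0.66, and U142 was lower by 1.28 and U368 by 1.24 on the log2 scale. All 4 values were smaller in size without ICC3996 at 27 h, at 0.47, 0.36, -0.75 and -0.38. U368, for example, had -0.50, 0.07 and -0.03 at 3 h and -0.66, -2.89 and -0.63 at 27 h. An F test of differences between the 3 lines within limma passed 0 of 572 features (0.0%), with 21 at an unadjusted p under 0.05. At 3 h, at 27 h and between the times, the unmoderated test that the submitters' methods name also passed 0 features after adjustment. It was run here on the line values, at most 3 for each comparison. The submitters had 18 data points for each time of each genotype, so this does not repeat their test.

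Pairs of the same line and time were used to set MeJA against SA over both times, and 0 of 517 features passed (0.0%). At an unadjusted limma p under 0.05, 59 were higher and 22 lower under MeJA. The median difference over all 517 was 0.07 on the log2 scale. U167 had values of -0.25, 0.14, -0.20, 0.05, -0.54 and 0.33 under MeJA (the 3 lines at 3 h, then at 27 h) and of -1.03, -0.23, -2.27, -1.43, -0.94 and -1.47 under SA. Its difference was 1.15 (SE 0.17, limma adjusted p = 0.142). LS0162 had -0.35, -0.48, 0.06, -0.76, -0.02 and 0.02 under MeJA and 1.42, 0.53, 1.51, 1.08, 1.70 and 2.72 under SA, a difference of -1.75 (SE 0.18, limma adjusted p = 0.117). In both, the MeJA values lay on both sides of 0 and the SA values on 1 side. Both features were named for a large difference of 1 sign in all pairs, so this reading was partly fixed by their choice. CA1108 differed by 1.19 (limma adjusted p = 0.231) and LS0341 by -1.18 (limma adjusted p = 0.148).

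Against ACC, 0 of 533 features passed (0.0%), with 57 higher and 13 lower under MeJA at an unadjusted limma p under 0.05. The median difference over all 533 was 0.11 on the log2 scale. CA0709 had -0.08, -0.11, 0.36, 0.56, -0.26 and -0.06 under MeJA and 1.38, 1.14, 2.23, 2.45, 1.45 and 1.98 under ACC. The MeJA values all lay below the ACC values, as they did for 3 of 462 features (0.649%), and the difference was -1.70 (SE 0.18, limma adjusted p = 0.130). CA0709 was named for a large difference of 1 sign in all pairs, so this reading was partly fixed by its choice. U497 differed by -1.38 (limma adjusted p = 0.213), CA1125 by 1.66 (limma adjusted p = 0.343) and U386 by 1.27 (SE 0.26, limma adjusted p = 0.213). Without the pair of ICC3996 at 3 h, 105 features passed against ACC, 71 higher and 34 lower, and without the pair of FLIP94-508C at 27 h, 3 passed against SA. With each sample's median subtracted, 5 passed against SA and 1 against ACC.

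The ICC3996 sample at 27 h held 64 of the 117 values at least 2-fold from control in the 6 samples (54.7%), 6 of them above and 58 below. Over the 6 samples 97 features reached that size at least once, 80 of them in a single sample. Of the 97, 53 did so only in ICC3996 at 27 h, 3 did so in 3 samples and 0 in 4 or more. The 3 were LS0041, U391 and U319, named after their values were seen.

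That sample was wider on both sides of the control, and most so on the low side. The percentile 1 of its log2 ratios was -4.39, which is 3.77 times that of the next lowest sample, while the percentile 99 was 1.03, 1.13 times that of the next highest. The percentile 95 was 0.67, against 0.29 to 0.44 in the other 5 samples, and 41 features were at least 1.5-fold above control, against 8 to 17. It also had the most omitted features, 171 of 715 (23.9%) against 89 to 124 in the other 5 samples. With the 64 features taken out its SD was 0.417, and those of the others, treated likewise, ran from 0.248 to 0.321.

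The 58 low features of ICC3996 at 27 h were nearer control in the other MeJA samples, where most of them also lay below it. Their median was -1.70 in that sample, -0.18 for FLIP94-508C, -0.24 for ICC3996 and -0.21 for Lasseter at 3 h, and -0.13 in FLIP94-508C and -0.22 in Lasseter at 27 h. At 3 h 42 of 53 measured were below 0 in FLIP94-508C, 35 of 52 in ICC3996 and 45 of 53 in Lasseter. At 27 h 40 of 53 were below in FLIP94-508C and 36 of 47 in Lasseter. Of all features, 54.7% to 60.4% were below 0 in those samples. Of the 58, 44 were measured in all 6 samples. Below control in all 6 were 18, against 50 of all 489 (10.2%), with 1 sign fixed by choice. In at least 1 other MeJA sample 9 of the 58 were at least 2-fold below, a share not counted for all features. By sample at 3 h, 2 of 53 were that low in FLIP94-508C (0.843% of all features), 5 of 52 in ICC3996 (2.57%) and 3 of 53 in Lasseter (1.44%). At 27 h 0 of 53 were that low in FLIP94-508C (0.64%) and 1 of 47 in Lasseter (0.677%). In ICC3996 at 27 h 24 were at least 4-fold below, against 1 feature in FLIP94-508C at 3 h and 0 in the remaining 4. The 58 features were chosen from ICC3996 at 27 h, so the contrast is a description. Just inside the 2-fold limit lay U139 with -1.02, and just outside it U352 with a log2 ratio of 0.998.

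In the same line and time under SA, the 58 features had a median of -0.45, against -0.08 for all features in that sample. At least 2-fold below were 13 of 50 measured (12.6% of all features in that sample). Under ACC they had a median of -0.74, against -0.30 for all features in that sample. At least 2-fold below were 24 of 55 (21.9% of all features in that sample). The 58 were chosen for low values in the same line and time, and whether these samples shared control plants is not given. By identifier class, 15 of 102 CA features (14.7%), 43 of 336 U features (12.8%) and 6 of 106 LS features (5.66%) were at least 2-fold from control in the MeJA sample.

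The most extreme values had few others to set beside them. U084 had -11.3 in ICC3996 at 27 h, 0.06 in ICC3996 and -0.18 in Lasseter at 3 h, and was omitted in the other MeJA samples. With the other compounds it had -3.39 in FLIP94-508C 27 h after SA and -3.51 in ICC3996 27 h after ACC. CA0706 had -7.07 there, against -0.05 in FLIP94-508C and 0.34 in ICC3996 at 3 h and -0.29 in FLIP94-508C at 27 h. It was also low in each line 27 h after SA, at -2.48, -2.05 and -1.65. Above control U015 had 2.27, against 0.04 in FLIP94-508C and -0.35 in Lasseter at 27 h, and CA1108 had 1.96. The spot signals behind these values were not used here, so how close they lay to background was not tested.

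**Figure D4:**
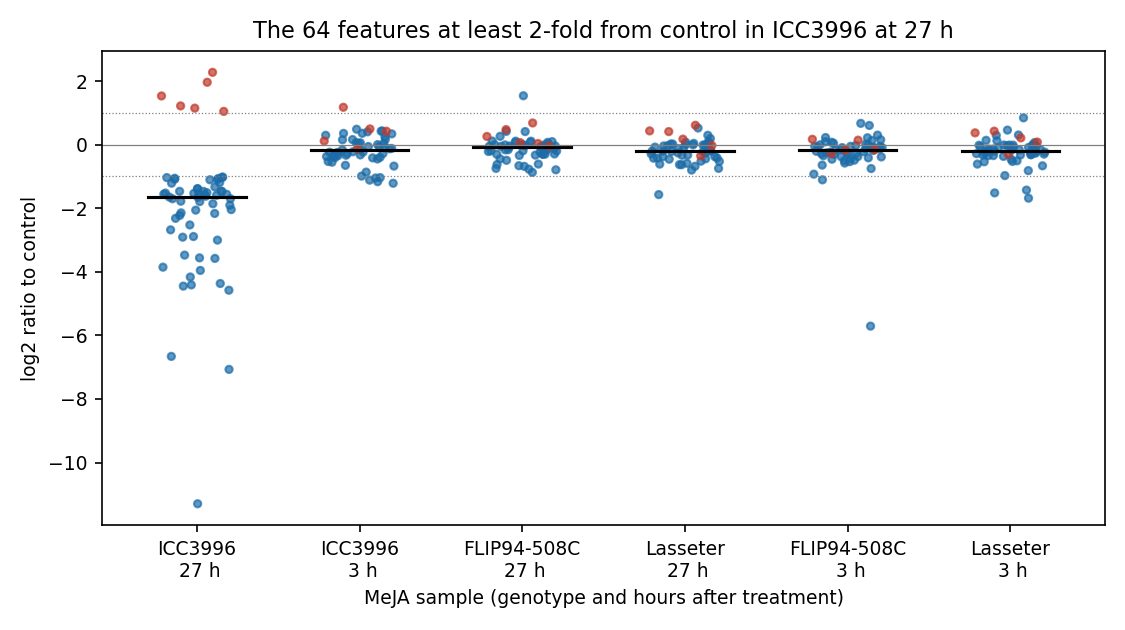
Log2 ratio to untreated control of the 64 features at least 2-fold from control in ICC3996 at 27 h under MeJA, in each of the 6 MeJA samples. Red marks the 6 features above control in that sample and blue the 58 below, black lines are medians over the 64, and dotted lines mark 2-fold. The median is -1.63 in ICC3996 at 27 h and lies between -0.21 and -0.07 in the other 5 samples.

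Across the 489 features measured in all 6 samples, the samples were weakly alike. The highest Pearson correlations across features were 0.53 between ICC3996 at 3 h and Lasseter at 27 h, 0.49 between ICC3996 and Lasseter at 3 h, and 0.44 between the 2 times of Lasseter. The 2 times of FLIP94-508C had 0.16 and those of ICC3996 had 0.12, and the lowest was -0.09 between FLIP94-508C and ICC3996 at 3 h. Pairs of 1 line thus ran from 0.12 to 0.44, within the range of pairs of different lines. Features are not independent replicates, and all samples share the same array design and processing.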

How the data were processed

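Per the labels, each deposited value is the authors' mean of 3 biological replications with dye swaps. Per the design text, there were 6 technical replicates and 324 images from 54 slides, read by an Affymetrix 428 instrument under Jaguar 2.0, with spots measured in ImaGene 5 (5.5 in the deposited readme). The authors, per the design text, worked in GeneSight 3, where local background was subtracted, marked spots were left out, Lowess was applied, and ratios of Cy5 to Cy3 were put on a shifted log2 scale with duplicate spots combined. The deposited log2 values were used as given. The shift, of a size the sources used here do not state, pulls ratios of dim spots towards 0. Arrays give no read depth, and their number limits the precision. No column was left unused (0). The 12 control features were not tested.

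The model was fitted to features with at least 2 values at each time (limma 3.58.1, R 4.3.3), with the times and a genotype term, 2 residual degrees of freedom at most and 1.94 prior ones. All p-values are two-sided and adjusted over all features tested by the Benjamini-Hochberg method, at a threshold of 0.05. SE is limma's standard error. Samples of the same line at both times are paired by the genotype, from the labels. Deviations of the same line from the time means had correlations of 0.01 for FLIP94-508C, -0.14 for ICC3996 and 0.00 for Lasseter across 489 features. Tables and exact permutation tests used Python 3.11.15, pandas 2.3.3 and numpy 2.4.6, and the scripts were tested on simulated data.

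At most 2 features in each direction were named for a comparison, because no gene names were at hand. They were those past the threshold with the largest mean or, where none passed, the largest mean among features of 1 sign. For features of 1 sign in all 6 samples they were those whose value nearest to 0 was largest in size, and for ICC3996 at 27 h the most extreme there. The samples, lists and rules were chosen with earlier results of these data known.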

Additional observations from a re-analysis of the deposited data

Results flagged for a closer look

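Within the 6 MeJA samples, 1 sample stood far from the others by Dixon's 95% limit in 11 of 29 sets of values searched, and in 9 of the 11 it was ICC3996 at 27 h. Chance marks about 1 in 20 sets that were not chosen for their values, so that rate is no yardstick here. ICC3996 at 27 h had been singled out before the search, and the sets share samples. Several features were named for their extreme value in that sample or for a mean that includes it. Over whole samples, ICC3996 at 27 h stood apart with 64 features at least 2-fold from control, an SD over features of 1.04 and an interquartile range of 0.70. Among single features it stood apart above control for CA1108 (1.96), U121 (1.53) and U071 (1.15). Below control it stood apart for LS0388 (-4.58), U368 (-2.89) and CA0706 (-7.07). FLIP94-508C at 27 h stood apart for U386, with 0.049 beside 0.74 to 0.93 in the other 5 samples. Lasseter at 3 h stood apart for U212, with 1.88.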

How the results depend on the processing

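The number of features past the threshold for the mean response (2) became 0 with no replicate block, with genotype as a random block, with each sample's median subtracted, with equal spread, with a variance trend, with the spread of all 18 samples and by the methods' t-test, and 7 with no time term. Leaving out 1 sample or 1 line gave 0 to 49. Such omissions gave 0 to 8 at 3 h (8 without ICC3996 at 3 h), 0 to 29 at 27 h (29 without ICC3996 at 3 h) and 0 between the times. Against SA the count was 1 with no replicate block, 5 with medians subtracted, 5 over features with all 6 values and 0 to 3 without 1 pair (2 without FLIP94-508C at 3 h, 3 without it at 27 h). Against ACC it was 2, 1 and 1 in the same order and 0 to 105 without 1 pair (105 without ICC3996 at 3 h, 2 without ICC3996 at 27 h, 2 without Lasseter at 27 h). Features above control in all samples numbered 5 at 0.1 or more from 0, 0 at 0.2 or more, 100 in at least 5 samples, and 51 to 63 without 1 sample. Those below numbered 17, 11, 129 and 56 to 73, and 33 with medians subtracted. The mean count of 2-fold features (19.5) was 66.2 at 1.5-fold and 10.6 to 22.6 without 1 sample. That of ICC3996 at 27 h (64) was 151 at 1.5-fold, 36 at 3-fold, and 101 and 202 in the matched SA and ACC samples, the last 2 added after seeing the data. The mean log2 ratio of SDs was -1.26 against SA and -1.17 against ACC, with exact permutation p = 0.0108 for both when the samples were taken as unpaired, and -1.54 to -1.14 and -1.40 to -1.04 without 1 pair. For the named features, 411 alternative values kept their direction and side of the threshold, 28 gained the call, 28 lost it and 0 reversed. The losses were all of the 2 called features, LS0035 and LS0616, each of which lost its call in 14 of 21 alternatives. Most values that kept their side were of features not called in the first place. The features were named for 1 sign in the samples compared, so the lack of reversals was largely fixed by that choice. The causes were not tested.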
